A study of Mus musculus with 6 samples.

Results

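Pcnp, Plcxd2, Bdh1, Slc35a5, Apod, Poglut1 and Hic2 are 7 mouse genes of chromosome 16, the chromosome that also carries Meltf, the melanotransferrin gene. They were chosen because each had a probe set that read lower in the brains of melanotransferrin knockout mice than in wild-type brains. All of their probe sets on the array were taken, bright or dim, wherever the platform annotation gave a probe set that single gene symbol. This gave 17 probe sets of the 45037 on the array that were not controls, and 7 of the 18193 genes with at least 1 such probe set. Slc35a5 had 5 probe sets, Hic2 had 3, Pcnp, Plcxd2, Bdh1 and Apod had 2 each, and Poglut1 had 1.

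The arrays were Affymetrix mouse 430 2.0 chips with total brain RNA, 1 chip per mouse. The knockout group held 4 mice lacking both copies of Meltf (MTf -/-, strain C57BL/6 - Lucy), and the wild-type group held 2 mice (MTf +/+, strain C57BL/6). All 6 were females aged 123 days from the same litter, and the labels explain neither the word Lucy in the strain name nor how the knockout allele was made. Strain label and genotype changed together between the groups, so their parts in any difference cannot be told apart. The numbers 1 to 4 and 1 to 2 below only name an array.

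On this array a gene is read by one or more probe sets, each a handful of short probes combined into 1 signal. Several probe sets of a gene can be placed on different stretches of the transcript or on different transcript forms, and a probe set reads only RNA that matches its own probes. Probe sets of one gene therefore need not give the same difference between animals. Because probes differ in how strongly they bind, the level of one probe set says nothing about that of another, but the log2 difference between a pair of them on the same array can be compared from array to array.

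The 7 genes have unrelated functions. Pcnp encodes a nuclear protein carrying a motif of the kind that marks proteins for rapid breakdown. Plcxd2 encodes a protein with the catalytic X domain of phosphatidylinositol-specific phospholipase C. Bdh1 encodes the mitochondrial dehydrogenase that interconverts the ketone bodies acetoacetate and 3-hydroxybutyrate, a fuel of the brain in fasting and in early life. Slc35a5 belongs to the family of nucleotide sugar transporters, most of which feed glycosylation in the Golgi apparatus and the endoplasmic reticulum. Apod encodes apolipoprotein D, a secreted lipocalin that carries small lipids and is made in brain mainly by glia. Poglut1 encodes an enzyme of the endoplasmic reticulum that adds glucose to the epidermal growth factor repeats of Notch receptors. Hic2 encodes a zinc finger transcriptional repressor related to Hic1.

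Along chromosome 16, in the gene order of assembly GRCm38.p6, Bdh1 and Apod lay closest to Meltf, with 10 and 14 annotated genes between, of which 2 and 3 were protein-coding. Hic2 lay on the same side with 328 genes between. On the other side stood Poglut1, Slc35a5, Plcxd2 and Pcnp, with 171, 246, 266 and 367 genes between. Among the 1521 annotated genes of the chromosome, the 7 lay between places 283 (Hic2) and 980 (Pcnp), with Meltf at 612.

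The probe letters are not in the files used here, so the stretch of RNA that each probe set reads could not be shown. What can be shown is the start region of the genes, as RefSeq gives it for GRCm38.p6: 250 bases before and 50 after the annotated start, written along the strand of the gene. Of the 7 genes, 6 had 1 start in this table and Bdh1 had 2. Pcnp and Apod are shown because their lower probe sets had the smallest p on the chromosome in that direction, and Bdh1 for its pair of starts. Capitals mark GGGCGG, the core of the GC box, or its reverse complement.
Pcnp (chr16:56029668-56029967, minus strand): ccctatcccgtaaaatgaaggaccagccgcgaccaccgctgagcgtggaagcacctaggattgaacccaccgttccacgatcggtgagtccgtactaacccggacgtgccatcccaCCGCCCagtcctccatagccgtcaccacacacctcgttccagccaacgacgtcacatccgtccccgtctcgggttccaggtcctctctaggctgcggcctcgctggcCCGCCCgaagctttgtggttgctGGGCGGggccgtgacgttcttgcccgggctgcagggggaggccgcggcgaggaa
Apod (chr16:31314759-31315058, minus strand): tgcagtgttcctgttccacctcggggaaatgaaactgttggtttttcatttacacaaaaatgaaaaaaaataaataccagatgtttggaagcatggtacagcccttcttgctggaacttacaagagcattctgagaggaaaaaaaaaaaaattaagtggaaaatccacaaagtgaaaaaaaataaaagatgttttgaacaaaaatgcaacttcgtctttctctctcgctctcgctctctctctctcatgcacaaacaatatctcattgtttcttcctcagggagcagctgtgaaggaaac
Bdh1 first start (chr16:31422047-31422346, plus strand): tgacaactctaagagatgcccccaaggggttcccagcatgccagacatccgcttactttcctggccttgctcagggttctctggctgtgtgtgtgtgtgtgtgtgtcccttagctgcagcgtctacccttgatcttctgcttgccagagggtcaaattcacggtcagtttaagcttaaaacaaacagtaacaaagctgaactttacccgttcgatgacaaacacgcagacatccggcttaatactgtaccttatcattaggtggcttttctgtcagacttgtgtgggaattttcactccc
Bdh1 second start (chr16:31428503-31428802, plus strand): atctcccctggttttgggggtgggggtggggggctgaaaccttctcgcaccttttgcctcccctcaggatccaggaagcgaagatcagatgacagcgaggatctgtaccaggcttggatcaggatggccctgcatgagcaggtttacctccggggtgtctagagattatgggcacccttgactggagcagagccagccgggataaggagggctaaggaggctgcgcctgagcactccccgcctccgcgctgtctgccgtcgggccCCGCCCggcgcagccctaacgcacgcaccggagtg
The Pcnp window was rich in G and C, 65.3% with 30 CG steps and 3 GGGCGG matches, whereas the Apod window had 37.3% with 4 CG steps and 0 matches. The first Bdh1 start had 48.3% and 0 matches, and the second 63.7% and 1 match. Over all 32851 windows of 300 bases the median was 52.7% with 7 CG steps, and GGGCGG was held by 35.7% of them. The motif TATAAA, held by 13.6% of all windows on either strand, was found in 0 of the 8 windows of these genes, and CCAAT, held by 37.4%, was found only in that of Plcxd2. In the windows shown no other searched motif was found, so none overlapped, and a match describes letters only.

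The arrays differed in brightness and in markers of brain regions. Wild type 1 had the lowest median signal, 192.5, against 238.2 to 278.3 on the other 5 arrays, and 24.5% of its probe sets lay below the offset of 49.6 that was added to every signal before the log2 step, against 17.6% to 20.2%. Knockout 2 had almost no cerebellar signal: Gabra6, a GABA receptor subunit of cerebellar granule cells, read 87.6 there on its brighter probe set, against 6938 to 10704 in the other knockouts and 15711 and 12020 in wild type. On the dimmer Gabra6 probe set the groups overlapped, with 1628 in knockout 4 against 1411 in wild type 2. Pcp2, another cerebellar gene, read 185.8 in knockout 2 on its brightest probe set. Knockouts 1, 3 and 4 read 28707, 23668 and 31264 there, against 22260 and 34050 in wild type, so the groups overlapped. The 4 cerebellar markers summed to 61888, 12200, 50282 and 67416 in knockouts 1 to 4 and to 71858 and 72716 in wild type, and 3 of the 4 were lower in the knockout with no overlap. Knockout 3 had 11293 as the sum of 4 pituitary markers, against 639 to 1215 in the other knockouts and 925 and 762 in wild type. Neuronal markers were bright on every array, with a lowest value of 4479. The 4 astrocyte markers summed to 15612 to 20239 in the knockouts and to 23597 and 21192 in wild type. Of the 4, 2, Gfap and Aqp4, were lower with no overlap between the groups. The 3 oligodendrocyte markers summed to 76626 to 102568 in the knockouts and to 63520 and 100421 in wild type. Lower with no overlap were also 1 of 3 oligodendrocyte, 1 of 4 microglial and 1 of 4 meningeal markers, and 1 of 4 neuronal markers was higher. Over the whole array 4.81% of probe sets were lower with no overlap and 11.3% were higher. The 3 endothelial markers summed to 1678 to 2242 in the knockouts and to 3125 and 1910 in wild type. The part of these differences in the results below was not tested, beyond the values given with 1 array left out. In whole brain, fewer cells of a type and less RNA per cell cannot be told apart.

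The single probe set of Meltf read 80.7, 132.9, 155.9 and 84.1 in knockouts 1 to 4, against 146.5 and 228.7 in wild types 1 and 2. The groups overlapped and the probe set was dim, at the 38.2 percentile by mean level. Where its probes fall relative to the altered part of Meltf is unknown from these sources, so it does not check the labels.

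All fold changes below are knockout minus wild type on the scale of log2(signal + 49.6), each with its standard error (SE) from a limma fit over all 45037 probe sets. In that fit 0 probe sets passed an adjusted p of 0.05 (limma, Benjamini-Hochberg), with 3046, or 6.76%, at an unadjusted p below 0.05. The same contrast chose the 7 genes, so their values are a description and carry no test. Ranked by p in the lower direction among the 1251 probe sets of 593 chromosome 16 genes, 8 probe sets of these 7 genes held ranks 1 to 8. The last of them was that of Poglut1, with a log2 fold change of -0.61, and the next was one of Eif2b5, a subunit of a translation initiation factor, with -0.45. Of the 10 probe sets of smallest p in the lower direction over the whole array, 6 were of chromosome 16, and all 6 belonged to these genes.

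Of the 17 probe sets, 10 were lower in the knockout with no overlap between the groups, 0 were higher with no overlap, and 7 overlapped. Over the whole array 4.81% were lower with no overlap and 11.3% were higher. Among probe sets of the other chromosome 16 genes the share that was lower with no overlap was 4.54%. The median log2 fold change was -0.37 over the 17, with 12 below 0, and 0.078 over the whole array, with 39.7% below 0. The choice of the genes fixed this contrast in part, and nothing is read from it.

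**Figure D1:**
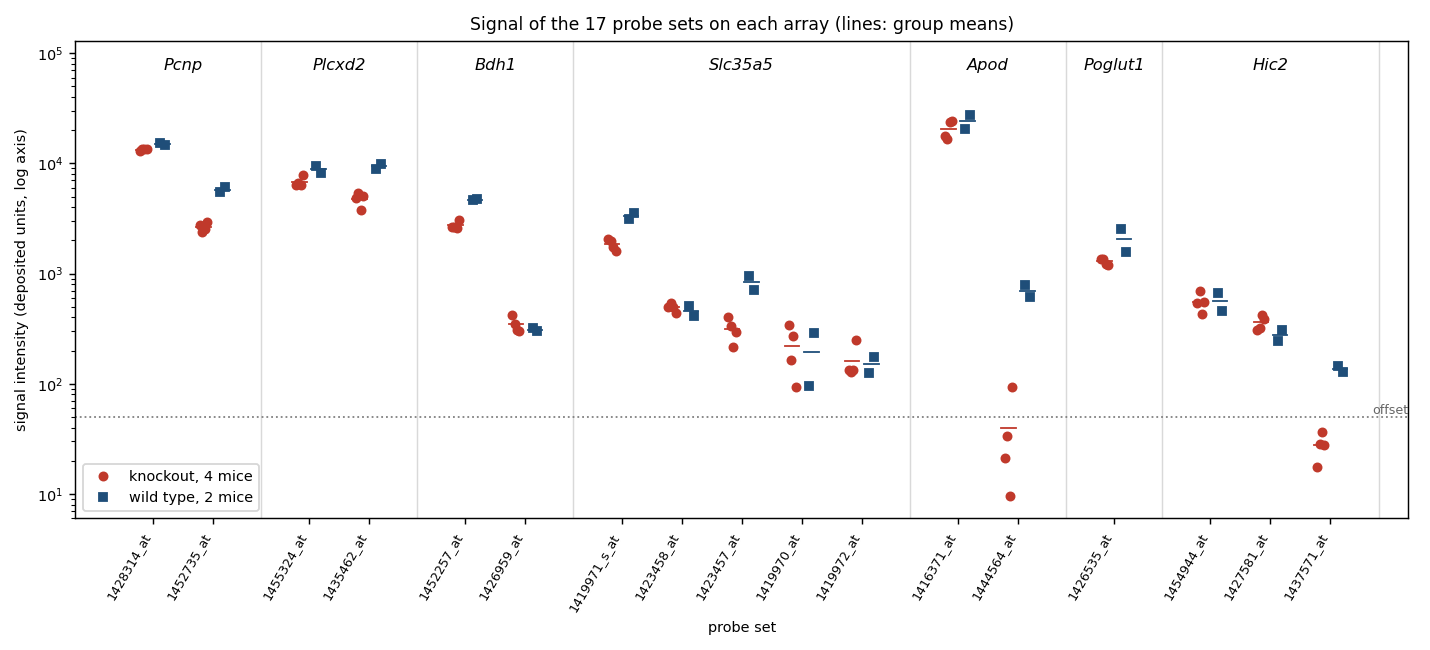
Signal intensity of each of the 17 probe sets (horizontal axis, grouped by gene) on a log axis in deposited units, with knockout mice as circles on the left and wild-type mice as squares on the right, short lines for group means and a dotted line for the offset of 49.6. The knockout circles lie below both squares for 10 probe sets, and for Apod 1444564_at and Hic2 1437571_at the knockout means lie below the offset.

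Pcnp was lower in the knockout on both of its probe sets, by very different amounts. On 1452735_at it read 2763, 2362, 2546 and 2935 in knockouts 1 to 4, against 5457 and 6055 in wild types 1 and 2. Every knockout mouse stood below both wild-type mice, by a wide margin next to the spread within either group. Means were 2652 ± 250 (SD, n = 4) for the knockouts and 5756 ± 423 (SD, n = 2) for wild type, a log2 fold change of -1.11 (SE 0.13). On 1428314_at the signals were 12846, 13435, 13487 and 13439 in the knockouts, against 15429 and 14666 in wild type. The groups again did not overlap, but the log2 fold change was only -0.18 (SE 0.13), with a 95% interval from -0.46 to 0.11. It was -0.39 with arrays centred on their medians. The annotation lists the same sequence record as the source of both probe sets.

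The within-array contrast of the Pcnp probe sets, 1428314_at minus 1452735_at on the log2 scale, was 2.20, 2.48, 2.38 and 2.18 in the knockouts, against 1.49 and 1.27 in wild type. It was larger in every knockout mouse than in either wild-type mouse, with a difference of 0.93 (SE 0.16). As both values come from the same RNA on the same chip, the scaling of the array cancels in it. With any 1 array left out the difference lay between 0.82 and 1.04.

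Plcxd2 showed the same arrangement at a smaller size. On 1435462_at it read 4882, 5429, 3817 and 5013 in the knockouts, against 8957 and 9827 in wild type. All knockouts were well below both wild types, and the log2 fold change was -0.98 (SE 0.15). On 1455324_at the signals were 6372, 6649, 6358 and 7914 in the knockouts, against 9544 and 8116 in wild type, so that knockout 4 lay just under wild type 2. The log2 fold change there was -0.37 (SE 0.14), and after quantile normalisation the groups overlapped. Both probe sets stem from 1 sequence record. Their contrast, 1455324_at minus 1435462_at, was 0.38, 0.29, 0.73 and 0.65 in the knockouts, against 0.091 and -0.27 in wild type, a difference of 0.60 (SE 0.17).

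For Bdh1 the brighter probe set was the one that differed. On 1452257_at it read 2667, 2627, 2567 and 3074 in the knockouts, against 4630 and 4719 in wild type. The wild-type pair agreed closely and stood apart from all 4 knockouts, with a log2 fold change of -0.77 (SE 0.12). On 1426959_at the signals were 422.8, 349.5, 309.0 and 304.1 in the knockouts, against 317.9 and 302.7 in wild type, and the groups overlapped. The log2 fold change of 0.13 on it (SE 0.26) turned to -0.086 when arrays were centred on their medians and to -0.032 after quantile normalisation. The contrast of the pair, 1452257_at minus 1426959_at, was 2.52, 2.75, 2.87 and 3.14 in the knockouts, against 3.67 and 3.76 in wild type. It was smaller in every knockout, by 0.89 (SE 0.31), and the sequence records of this pair are not listed.

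Slc35a5 had 2 probe sets that were lower in the knockout and 3 that were not. On 1419971_s_at it read 2065, 1980, 1745 and 1610 in the knockouts, against 3158 and 3569 in wild type, a log2 fold change of -0.85 (SE 0.14). The suffix s marks, in Affymetrix naming, a probe set whose probes match several transcripts. On 1423457_at it read 406.6, 332, 216.7 and 294.8 in the knockouts, against 946.5 and 715.7 in wild type, a log2 fold change of -1.30 (SE 0.27). On both of these every knockout stood below both wild types.

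The remaining Slc35a5 probe sets overlapped between the groups. On 1423458_at the signals were 501.5, 539.6, 498.6 and 441.7 in the knockouts, against 507.6 and 416.2 in wild type, a log2 fold change of 0.094 (SE 0.21). On 1419970_at and 1419972_at, both of low signal, the knockouts ranged from 93.1 to 344.2 and from 127.5 to 250.4, and the wild types read 94.7 and 290.0 on the first and 124.3 and 174.8 on the second. Their log2 fold changes were 0.17 and 0.058, with standard errors of 0.50 and 0.37. The signs of these 3 values depended on scaling: they were -0.12, -0.043 and -0.16 with arrays centred on their medians. They depended on single arrays too. The value of 1419970_at became -0.45 on dropping wild type 1 and 0.79 on dropping wild type 2, and that of 1419972_at was -0.13 and 0.24, the last with no overlap. The value of 1423458_at was 0.22, higher with no overlap, on leaving out wild type 1 and -0.035 on leaving out wild type 2.

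The 5 probe sets of Slc35a5 give 10 pairs, which share probe sets and so are not independent. The groups did not overlap for 4 of the 10 contrasts, where 15.4% of all within-gene pairs on the array did not. Each of the 4 includes a lower probe set, 1419971_s_at or 1423457_at, so the count is a description. The clearest was 1423458_at minus 1423457_at, a pair from 1 sequence record, at 0.27, 0.63, 1.04 and 0.51 in the knockouts, against -0.84 and -0.72 in wild type. The sign of the contrast was thus opposite in the groups, with a difference of 1.39 (SE 0.30). For 1419971_s_at minus 1423458_at the contrast was 1.94, 1.78, 1.71 and 1.76 in the knockouts, against 2.53 and 2.96 in wild type, a difference of -0.94 (SE 0.26). Between the pair of lower probe sets, 1419971_s_at minus 1423457_at, the groups overlapped and the difference was 0.45 (SE 0.30). Among the 3 probe sets that were not lower, the differences of the 3 contrasts were -0.077, 0.037 and 0.11, with overlap in each. Each changed sign when one or another array was left out. For 1423458_at minus 1419970_at, dropping wild type 1 gave 0.67, higher with no overlap, and dropping wild type 2 gave -0.82, lower with no overlap. The other contrasts ran from -0.28 to 0.35 and from -0.32 to 0.56.

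Apod had the widest gap between its probe sets. On the dim 1444564_at the knockouts read 21.2, 33.6, 9.5 and 92.9, against 780.9 and 613.5 in wild type. All 4 knockout signals were far below both wild-type signals, and 3 of them were below the offset of 49.6. The log2 fold change was -3.14 (SE 0.42), and its size was set by the offset: it was -1.92 with an offset 4 times larger and -4.02 with one 0.25 times as large. On the bright 1416371_at the knockouts read 17851, 16640, 23907 and 24055, against 20562 and 27785 in wild type. The groups overlapped there, with a log2 fold change of -0.23 (SE 0.21), which moved to -0.45 when wild type 1 was left out and to -0.016 when wild type 2 was.

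The Apod contrast, 1416371_at minus 1444564_at, was 7.98, 7.65, 8.66 and 7.40 in the knockouts, against 4.63 and 5.39 in wild type. The lowest knockout value stood above the highest wild-type value by more than the range of either group. The difference was 2.91 (SE 0.49), and it ranged from 2.53 to 3.29 with 1 array left out. The offset moved it more, to 1.69 with the larger one and 3.79 with the smaller one. The pair comes from different sequence records. By its mean level 1444564_at is among the dimmest 40% of probe sets, and without detection calls its knockout signals cannot be said to exceed background.

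Hic2 was lower on 1 of its 3 probe sets, again the dimmest. On 1437571_at the knockouts read 17.5, 28.6, 36.4 and 27.6, against 143.4 and 129.0 in wild type. All 4 knockout signals were below the offset and both wild-type signals were above it, so the log2 fold change of -1.27 (SE 0.29) was -0.57 with the larger offset and -1.92 with the smaller one. On 1454944_at the knockouts read 539.4, 695.4, 426.8 and 555.8, against 663.6 and 457.8 in wild type, and on 1427581_at they read 305.6, 323.8, 419.4 and 390.3, against 244.0 and 309.0. The groups overlapped on both, with log2 fold changes of -0.012 and 0.33 and standard errors of 0.24 and 0.27. The value for 1454944_at became 0.23 on leaving out wild type 1 and -0.26 on leaving out wild type 2, and that for 1427581_at 0.18 and 0.47, the last with no overlap. Without knockout 1 the value for 1427581_at was 0.39, also higher with no overlap.

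The widest Hic2 contrast was 1427581_at minus 1437571_at, at 2.40, 2.26, 2.45 and 2.51 in the knockouts, against 0.61 and 1.01 in wild type, a difference of 1.60 (SE 0.42). It was 0.80 with the larger offset and 2.28 with the smaller one, and the groups did not overlap. For 1454944_at minus 1437571_at the difference was 1.26 (SE 0.44), with 0.56 and 1.90 under the same offsets. Between the brighter 2 probe sets the contrast overlapped, with a difference of -0.34 (SE 0.37). That value was 0.052 with wild type 1 left out and -0.73, with no overlap, when wild type 2 was left out.

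Poglut1 has no second probe set to set beside 1426535_at. It read 1370, 1366, 1229 and 1194 in the knockouts, against 2521 and 1564 in wild type. The knockouts were close together and below both wild types, but the wild types differed between themselves by more than the lower one did from the knockouts. The log2 fold change of -0.61 (SE 0.19) shrank to -0.27 when wild type 1 was dropped and grew to -0.94 when wild type 2 was.

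**Figure D2:**
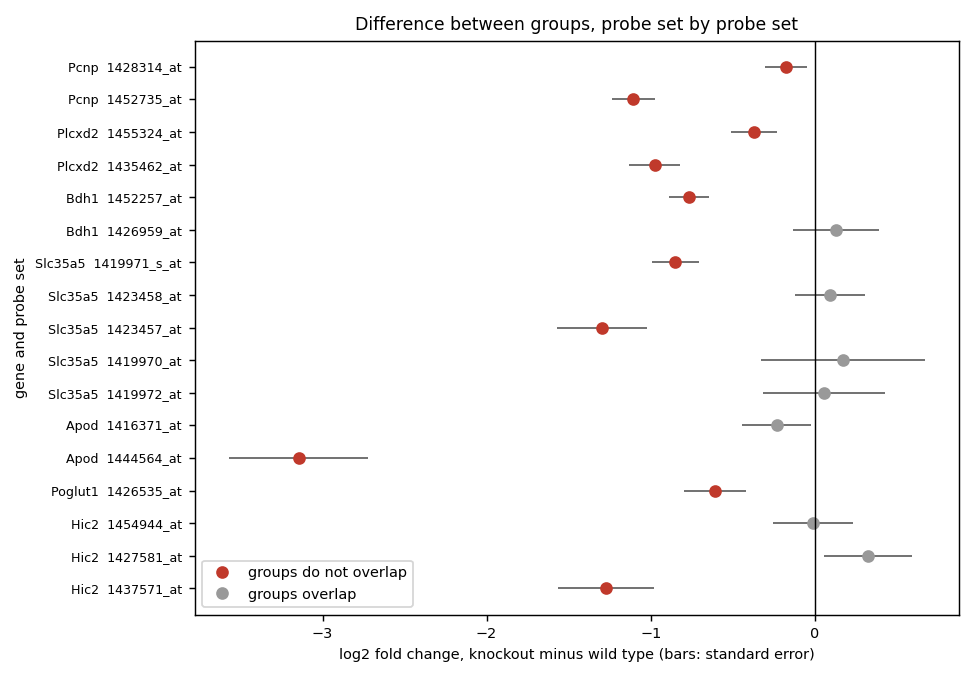
Log2 fold change, knockout minus wild type, of each probe set (rows, by gene) with its standard error as a bar; filled red points mark probe sets whose groups did not overlap and grey points those that overlapped. The values range from -3.14 for Apod 1444564_at to 0.33 for Hic2 1427581_at, and within Bdh1, Slc35a5, Apod and Hic2 red and grey points stand side by side.

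Over the 6 genes with several probe sets, the within-array contrast did not overlap between the groups for 10 of 17 pairs, where 15.4% of the 30372 within-gene pairs on the array did not overlap. The median absolute difference was 0.93 for the 17 pairs and 0.30 for all pairs. In the limma fit over all pairs, 0 passed an adjusted p of 0.05 and 7.08% had an unadjusted p below 0.05. Of the 17 pairs, 6 came from a shared sequence record, and 4 of those 6 did not overlap, where 14.8% of all 5219 such pairs did not. As the probe sets that chose the genes are part of these contrasts, the shares are a description.

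**Figure D3:**
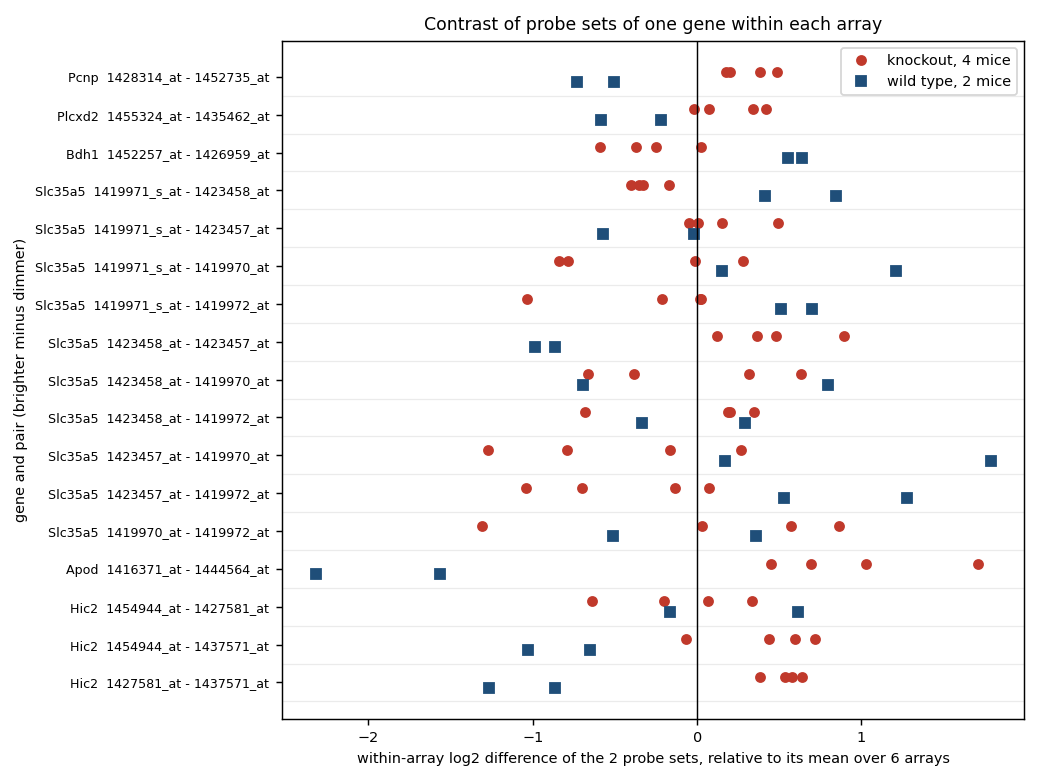
Log2 difference between the probe sets of a pair on the same array, brighter minus dimmer, relative to its mean over the 6 arrays (horizontal axis), for the 17 pairs of 6 genes (rows), with knockout mice as circles above and wild-type mice as squares below. Circles and squares do not overlap in 10 rows, and they lie farthest apart for Apod, where the difference between the groups was 2.91.

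The distance between the highest and the lowest log2 fold change within a gene was 0.44 at the median of the 9010 genes with 2 or more probe sets. It uses the fold changes by which the 7 genes were chosen, so the places of these genes in it are a description. Apod stood at 2.91 and Hic2 at 1.60, but both rest on a probe set whose knockout signals were mostly below the offset: the Apod distance was 1.69 with the larger offset and 3.79 with the smaller one. Slc35a5, at 1.47, lay at the 95.2 percentile of the 463 genes with 5 probe sets. The distances of Pcnp, Bdh1 and Plcxd2, 0.93, 0.89 and 0.60, lay at the 92.7, 91.9 and 80.0 percentiles of the 4695 genes with exactly 2 probe sets. With the 40% dimmest probe sets left out, Hic2 lay in the middle, at the 50.6 percentile with a distance of 0.34, and Apod kept a single probe set.

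**Figure D4:**
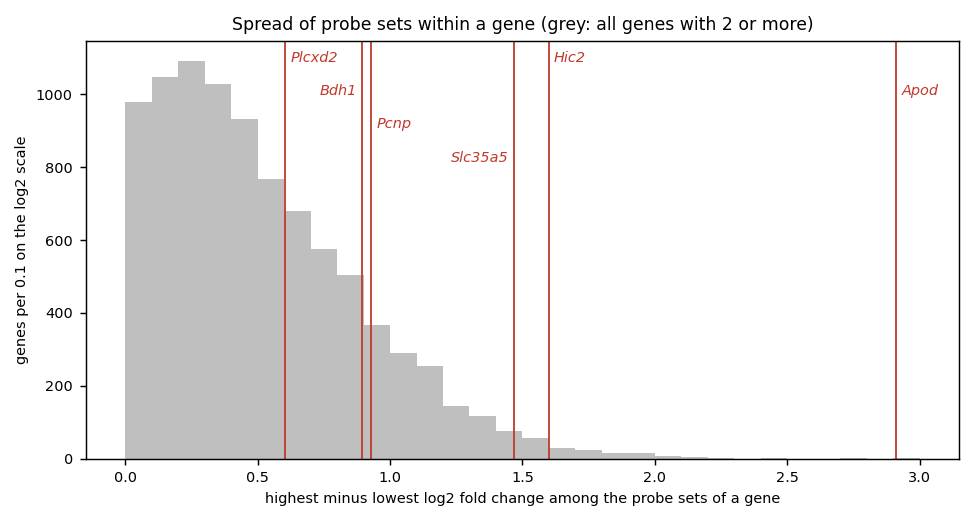
Distribution over 9010 genes of the distance between the highest and lowest log2 fold change among the probe sets of a gene (grey bars, genes per step of 0.1), with red lines at the 6 genes that have several probe sets. Plcxd2 stands near the bulk at 0.60, Slc35a5 and Hic2 in the tail at 1.47 and 1.60, and Apod at the far end at 2.91.

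Over the 6 arrays, log2 signals of the Pcnp pair had a Pearson correlation of 0.88, those of the Plcxd2 pair 0.80 and those of the lower Slc35a5 pair, 1419971_s_at and 1423457_at, 0.93. The Bdh1 pair had -0.47, the Apod pair 0.43, the 3 Hic2 pairs ranged from -0.62 to 0.0088, and the remaining Slc35a5 pairs from -0.77 to 0.082. The median over 16018 within-gene pairs above the dim line was 0.20. These are descriptions over 6 points that include the difference between the groups and share chip and scaling.

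With 1 array left out at a time, the 10 lower probe sets stayed lower with no overlap in each of the 6 cases. That was fixed in advance, since groups that do not overlap on 6 arrays cannot overlap with 1 removed. An eleventh, Apod 1416371_at, joined them without wild type 1. Fewer arrays make overlap rarer everywhere: the share of all probe sets that was lower with no overlap was 6.7% to 7.95% without a knockout, 15.7% without wild type 1 and 16.7% without wild type 2. The log2 fold changes of the lower probe sets other than that of Poglut1 ranged less on the log2 scale. They ran from -1.18 to -1.03 for Pcnp 1452735_at, from -1.04 to -0.87 for Plcxd2 1435462_at, from -0.82 to -0.74 for Bdh1 1452257_at and from -0.94 to -0.76 for Slc35a5 1419971_s_at. For Pcnp 1428314_at they ran from -0.21 to -0.14, for Plcxd2 1455324_at from -0.49 to -0.25 and for Slc35a5 1423457_at from -1.49 to -1.11. For the dim Apod 1444564_at and Hic2 1437571_at they ran from -3.40 to -2.98 and from -1.33 to -1.21. Without knockout 2, the mouse with little cerebellar signal, the count was 10 as well. It could not have been lower, so it says nothing about the part of the cerebellar signal.

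**Figure D5:**
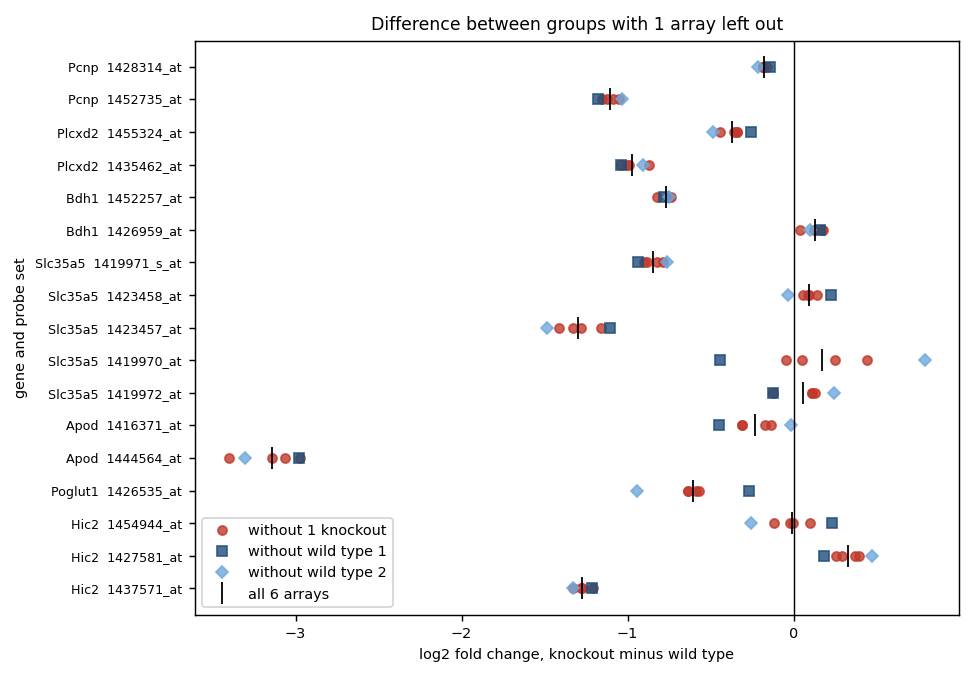
Log2 fold change, knockout minus wild type, of each probe set (rows) with all 6 arrays (vertical tick) and with 1 array left out (circles for a knockout, squares for wild type 1, diamonds for wild type 2). The points of Pcnp 1452735_at stay between -1.18 and -1.03, while those of Poglut1 span -0.94 to -0.27.

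The genes whose signals over the 6 arrays were most like the lower probe sets were sought among the single-symbol probe sets above the dim line, by Pearson correlation over the 6 arrays, which the difference between the groups enters. Pcnp 1452735_at was most like Apol8, an apolipoprotein L gene (r = 0.995), and then Bdh1 1452257_at (r = 0.989). Apod 1444564_at was most like the same Bdh1 probe set (r = 0.994) and then Serpinb6b (r = 0.992). Plcxd2 1435462_at was most like Ublcp1 and Vapa (r = 0.986 and 0.983), Slc35a5 1423457_at like Ik and Mettl9 (r = 0.992 and 0.988), Poglut1 like Vbp1 and Glrx (r = 0.998 and 0.994), and Hic2 1437571_at like Wdr36 and Egflam (r = 0.996 and 0.991). Bdh1 1452257_at was most like Pcnp 1452735_at and Apol8 (r = 0.989 and 0.987). Between 22 and 184 probe sets had a correlation above 0.95 with each of these, out of about 23060 compared.

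Relatives of the 7 genes in function or family were counted on their brightest probe set. Of 54 listed, 52 were measured and 0 passed an adjusted p of 0.05 in limma, where 0 of all probe sets did. With no overlap, 5 were lower in the knockout (Acat1, Slc35b4, Slc35f4, Poglut2 and Hic1) and 4 were higher (Oxct1, Slc35e4, Slc35f3 and Notch1), where 4.81% of all probe sets were lower and 11.3% higher. Their median log2 fold change was -0.049. Among the other members of the Slc35 family that were listed, 22 of 22 were measured. Of these, 2 were lower and 2 higher with no overlap, beside the same shares of 4.81% and 11.3%. The values ran from -0.43 for Slc35c2 to 0.27. Among the ketone body enzymes, Acat1, the mitochondrial acetoacetyl-CoA thiolase, read 6085, 6034, 5161 and 5324 in the knockouts, against 7595 and 6321 in wild type, a log2 fold change of -0.30 (SE 0.14).

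Among the 15 sugar transferases and receptors of the Notch pathway, 1 was lower and 1 higher with no overlap, where 4.81% and 11.3% of all probe sets were. Poglut2, a relative of Poglut1 that adds glucose to other sites of Notch, read 995, 822, 839 and 687 in the knockouts, against 1969 and 1299 in wild type, a log2 fold change of -0.91 (SE 0.21). Of the 7 secreted lipid carriers listed beside Apod, 0 stood apart between the groups in either direction, and the value farthest from 0 was that of the dim Apoa1, 0.44 (SE 0.43). Of the relatives of Hic2, Plcxd2 and Pcnp, Hic1 was lower with no overlap, with a log2 fold change of -0.54 (SE 0.23). Uhrf1, which encodes a chromatin ubiquitin ligase, had 1.10 (SE 0.44) at signals of 16.5, 125.1, 90.5 and 134.9 in the knockouts, against 4.3 and 20.2 in wild type, mostly near the offset.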

How the data were processed

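Total brain RNA of 6 mice was hybridised to 1 array each. The table deposited by the authors holds linear signal intensities, 1 for each probe set on each array. Per the submitters' processing notes the software was GCOS 1.3; how signals were summarised, called or filtered is not given there. On every array the trimmed mean over the middle 96% of values equalled 1000, so arrays had been scaled. Of 45101 probe sets, 64 controls were left out. The platform annotation gave 34945 probe sets 1 symbol, 932 several and 9160 none, and the GRCm38.p6 gene table changed 0 symbols. That assembly was used for names, gene order and RefSeq start regions only, since the series names no build.

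An offset of 49.6 (the 20th percentile over all values) was added before log2, which understates fold changes of dim probe sets, with no filter. The contrast, knockout minus wild type, was fitted in limma 3.58.1 (R 4.3.3; lmFit, then eBayes with a trend on level), with 4 residual degrees of freedom and no covariate. Within-array contrasts of all 30372 pairs of probe sets sharing 1 symbol, brighter minus dimmer by mean level, were fitted in the same way, with the trend on the dimmer level. P-values, 2-sided, were adjusted (Benjamini-Hochberg) over all probe sets or all pairs. The fits were tested on simulated data. Figures were drawn in Python 3.11.15. With 4 against 2 arrays an exact permutation test cannot give a p below 0.0667. The number of arrays limits the precision.

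Named were Meltf, the cerebellar genes Gabra6 and Pcp2, and all probe sets of the 7 genes. Also named were the 2 most similar genes for the lowest probe set of each gene. Among the relatives, the one with the largest absolute change per list was named. Eif2b5, relatives without overlap and marker sums were named after their values were seen. The genes, lists and tests were chosen with earlier results of these data known. Alternatives were quantile normalisation, median centring, offsets 4 and 0.25 times as large, leaving out the 40% dimmest probe sets (mean signal up to 142.8), no intensity trend, and leaving out each array.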

Additional observations from a re-analysis of the deposited data

Results flagged for a closer look

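Among the 4 knockout mice, 1 value stood far from the other 3 in 3 of 34 sets of values tested (17 probe sets and 17 contrasts), with a gap over range above the 95% critical value of Dixon for 4 samples, and chance gives about 1 in 20. Pcnp 1428314_at read 12846.3 in knockout 1, against 13435 to 13487 in the other knockouts. Slc35a5 1419972_at read 250.4 in knockout 4, against 127.5 to 133.8 in the other knockouts. The contrast of Slc35a5 1423458_at minus 1419972_at was 0.71 in knockout 4, against 1.58 to 1.73 in the others, and shares that probe set.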

How the results depend on the processing

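The count of 10 lower probe sets without overlap was 8 to 11 over the alternatives, and that of 10 contrasts without overlap was 7 to 15. The lowest of each came with the 40% dimmest probe sets left out. That removed 2 of the 17 probe sets and 3 of the 17 pairs. In that setting 6.12% of all remaining probe sets were lower with no overlap, and 16.4% of all remaining pairs did not overlap. The highest count of contrasts, 15, came without wild type 2, where 49.7% of all pairs did not overlap, against 15.4% with all arrays and 36.5% without wild type 1. The highest count of probe sets, 11, came without wild type 1 and with median centring, where 15.7% and 14% of all probe sets were lower with no overlap. Without wild type 2, 171 probe sets passed in limma over the whole array, among them Pcnp 1452735_at, and 569 pairs passed, among them that of Apod; in all other settings both counts were 0, so with 1 array left out they ranged from 0 to 171 and from 0 to 569. The cause was not tested. The lone wild type is there assumed to vary like the knockouts. The median over the 17 probe sets was -0.58 with arrays centred on their medians, which moved the median of the whole array to -0.14, and ranged from -0.49 to -0.34 with 1 array left out. Of 170 values of single probe sets, 17 moved by more than the spread between mice, and of 170 values of contrasts, 13 did. Among those whose groups did not overlap with all 6 arrays, 0 changed sign. For single probe sets that was fixed in advance when an array was left out or the offset changed. For contrasts it was fixed when an array was left out or arrays were centred on their medians. Several values whose groups overlapped with all arrays did change sign in some setting. These were Bdh1 1426959_at, Slc35a5 1423458_at, 1419970_at and 1419972_at with each contrast among them, Hic2 1454944_at, and the contrast of Hic2 1454944_at minus 1427581_at. No paired analysis was possible because the labels give the groups no shared replicate numbers. No detection calls were used, so signals near the offset have no order.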
